A study of Homo sapiens with 4 samples.

Results

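The genes described here are the neuronal and synaptic adhesion genes that were measured in the human embryonic stem cell line H1. They were chosen by gene symbol alone, as the members of the SLITRK, LRRTM, LRRN, FLRT, LRFN, neurexin (NRXN), neuroligin (NLGN), contactin (CNTN), CNTNAP, IGSF, CADM, NCAM, latrophilin (ADGRL) and teneurin (TENM) families, with L1CAM, NRCAM, NFASC and the receptor phosphatase genes PTPRD, PTPRF, PTPRS and PTPRZ1. Of 17472 genes in the table, 60 matched, all of them protein-coding. A further 16 protein-coding genes of GENCODE v29 match the same names and were not analysed here: ADGRL4, CNTN2, CNTN3, CNTN5, CNTN6, CNTNAP3C, CNTNAP4, CNTNAP5, FLRT3, IGSF6, IGSF22, IGSF23, LRRN3, LRRN4, LRRTM2 and SLITRK6. The study sequenced poly(A) RNA in 2 libraries from H1 cells carrying MEK5DD and in 2 from unmodified H1 cells (WT). Both groups grew in the defined stem cell medium E8. MEK5DD is MAP2K5, the kinase directly upstream of MAPK7 (ERK5), with 2 serines changed to aspartate, and it was delivered in a lentiviral vector followed by puromycin selection. The labels describe 1 MEK5DD line and do not say whether replicates were separate cultures. The spread behind each p-value, that between libraries of a group and pooled in part over genes, may thus be technical. There is no empty-vector line among the samples, so MEK5DD and the delivery, drug selection or subline that came with it cannot be told apart.

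Adhesion proteins of these families span the membrane or are anchored to it, and they bind partners on the facing cell to guide axons and to start and shape synapses. Presynaptic neurexins and receptor phosphatases of the LAR group are bound across the synaptic cleft by postsynaptic neuroligins, LRRTM, SLITRK and LRFN proteins, while latrophilins are bound by teneurins and FLRT proteins. Proteins of the immunoglobulin class, such as L1CAM, NCAM1 and CADM1, also bind copies of themselves or of close relatives. Many of these genes are active in the early embryo and in stem cells, before any synapse forms.

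The libraries held 17539654 and 15756339 recovered reads in MEK5DD cells and 17628945 and 14908486 in WT cells. MAP2K5, the gene that was introduced, had normalised read counts of 3382 and 3558 in MEK5DD libraries, against 344 and 314.5 in WT libraries (10.5-fold higher). Gene counts do not separate introduced from native MAP2K5 transcripts. Differences between libraries were larger in the MEK5DD pair (chi-square per degree of freedom 6.11) than in the WT pair (1.88), against 12.6 to 16.3 across the groups. The 60 adhesion genes together held 38065 and 40564 normalised counts in the MEK5DD libraries, against 45327 and 46132 in the WT libraries. Their sum was thus lower in both MEK5DD libraries than in either WT library. Abundant genes weigh most in it, such as LRRN1 (mean 1878 in MEK5DD libraries, against 3415 in WT libraries) and NLGN4X (1130, against 2703). Of the 56 genes tested below, 20 had a positive log2 fold change, so the sum does not describe every gene.

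Adhesion genes changed in both directions. Of the 60, 56 passed the filter on low values (at least 10 normalised counts in at least 2 libraries), and 4 lay below it (LRRTM1, SLITRK2, CNTNAP3B and NCAM2). With limma on log2(value + 1), adjusted over all 15721 genes tested, 19 of the 56 changed at an adjusted p under 0.05 (33.9%, against 14.2% of all genes tested). L1CAM, an adhesion gene of growing axons, led 7 genes that rose (12.5%, against 7.69% of all genes). SLITRK3, SLITRK5 and the neuroligin gene NLGN4X led 12 that fell (21.4%, against 6.47% of all genes). At least 2-fold changes were called in 6, with L1CAM and FLRT2 higher and SLITRK3, NLGN4X, SLITRK5 and SLITRK1 lower (background 2.44% of all genes). The median log2 fold change of the 56 was -0.14, against -0.0023 over all genes tested, and 36 had a negative value and 20 a positive one. The 37 genes that were not called ran from -1.18 to 0.59, and 7 of them had an unadjusted p under 0.05. In 37 of the 56 (66.1%) both MEK5DD values lay on the same side of both WT values, against 56.2% of all genes tested, and all 19 called genes were among them. In bulk RNA fewer cells of a type and less RNA per cell cannot be told apart.

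**Figure D1:**
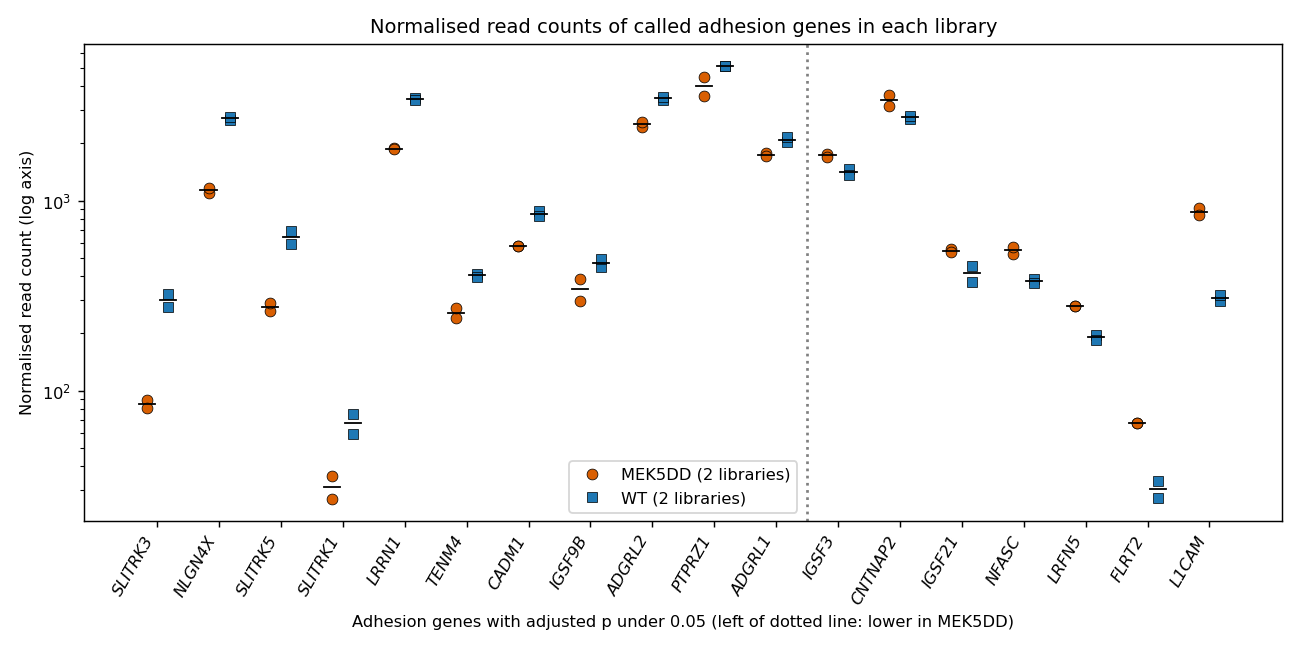
Normalised read counts (log axis) of 18 of the 19 adhesion genes with an adjusted p under 0.05 (all but NLGN4Y), with MEK5DD libraries as circles, WT libraries as squares and short lines at the group means. SLITRK3 shows the widest gap among the falls and L1CAM among the rises, and none of the 18 has overlapping groups.

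Sequences of 4 genes are shown because they carried the largest rise and the largest falls at least 2-fold with means above 100 counts. Each is the 250 bases before a RefSeq transcript start on the gene's strand (build GRCh38.p14), and capitals mark GC boxes, GGGCGG read on both strands. Where RefSeq lists several starts, the start nearest to that of GENCODE v29 was taken, and for L1CAM that start lay 10160 bases from it. The L1CAM window lies at chrX:153876015-153876264, the SLITRK3 window at chr3:165197110-165197359, the SLITRK5 window at chr13:87672339-87672588 and the NLGN4X window at chrX:6228868-6229117. All lie on the minus strand except that of SLITRK5.
L1CAM: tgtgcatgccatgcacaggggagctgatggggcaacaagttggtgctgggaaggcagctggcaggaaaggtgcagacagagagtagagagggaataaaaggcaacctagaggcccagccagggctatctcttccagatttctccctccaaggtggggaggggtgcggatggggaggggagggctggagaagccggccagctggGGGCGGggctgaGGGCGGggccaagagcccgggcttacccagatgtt
SLITRK3: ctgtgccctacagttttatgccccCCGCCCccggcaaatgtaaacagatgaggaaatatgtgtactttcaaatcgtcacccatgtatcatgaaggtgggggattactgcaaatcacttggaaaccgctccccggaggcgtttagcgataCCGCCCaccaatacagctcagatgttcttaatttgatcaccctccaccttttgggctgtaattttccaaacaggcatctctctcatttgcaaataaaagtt
SLITRK5: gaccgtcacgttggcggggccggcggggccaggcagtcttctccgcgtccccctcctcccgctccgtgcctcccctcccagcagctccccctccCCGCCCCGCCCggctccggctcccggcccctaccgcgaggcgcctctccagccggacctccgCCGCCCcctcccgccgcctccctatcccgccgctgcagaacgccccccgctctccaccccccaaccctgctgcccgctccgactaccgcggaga
NLGN4X: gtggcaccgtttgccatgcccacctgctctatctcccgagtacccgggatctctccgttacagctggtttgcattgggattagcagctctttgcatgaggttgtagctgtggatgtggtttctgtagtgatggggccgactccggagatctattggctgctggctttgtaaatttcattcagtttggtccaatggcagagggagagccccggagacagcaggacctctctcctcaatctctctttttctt
GC boxes matched at 2 places in the L1CAM and SLITRK3 windows each, 3 in that of SLITRK5 and 0 in that of NLGN4X. Across members, 49 of 60 had a RefSeq window, and GGGCGG was found in 26 of them (53.1%), against 42.6% of 35116 windows of the same length. Members gave 1 window each, while the 35116 hold every RefSeq start of all genes, so the sets differ in kind. GGGCGG was also compared by direction of change. It was in 4 of 6 windows of genes that rose and 5 of 9 of genes that fell. ACAAT, the core of SOX binding sites, was found on either strand in 7 of 49 (14.3%, against 24.6% of all windows), of which 1 belonged to a gene that fell, PTPRZ1. TGANTCA, the AP-1 motif, was found in 1 of 49 (2.04%, against 6.57%), the window of FLRT1. The RefSeq start of that window lay 66506 bases from the GENCODE v29 start. Windows of some other members lay further off, up to 289442 bases for IGSF1. CANNTG, the E-box, was found in 31 of 49 (63.3%, against 61.8%), near the share of all windows. It was in 3 of 6 windows of genes that rose and 7 of 9 of genes that fell. TGACGTCA, the CRE motif, was found in 1 of 49 (2.04%, against 1.65%), also near that share. Base composition differed between the sets: the median GC content was 62.8% in the members' windows, against 58% in all windows. The median observed over expected CpG ratio was 0.674, against 0.558. Composition also differed by direction: the median GC content was 64.6% in windows of genes that rose and 52.4% in those of genes that fell. Their median CpG ratios were 0.718 and 0.613. The part of base composition in these motif shares was not tested. In the members' windows E-box matches shared bases with GGGCGG in 1 window and with ACAAT in 1. No other matches of different motifs shared bases.

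The SLITRK genes encode postsynaptic leucine-rich repeat proteins that bind the LAR group of receptor phosphatases, and 3 of the 4 tested fell (6.47% of all genes). SLITRK3, which acts at inhibitory synapses, had normalised read counts of 89.05 and 80.7 in MEK5DD libraries, against 277 and 322 in WT libraries. Both MEK5DD values lay far below the WT values, at 3.49-fold lower (log2 fold change -1.80, SE 0.14, adjusted p = 5.32e-06). SLITRK5 had 263 and 288 in MEK5DD libraries, against 589 and 695 in WT libraries, which was 2.32-fold lower (log2 fold change -1.22, SE 0.11, adjusted p = 1.62e-05). SLITRK1 had 35.4 and 26.9 in MEK5DD libraries, against 75.7 and 59.4 in WT libraries, and its fall (-1.09, SE 0.24, adjusted p = 0.0108) was lost without WT replicate 1 (adjusted p = 0.0847). SLITRK1 and SLITRK5 lie on chromosome 13, at 83877205 to 83882393 and 87672615 to 87696272 (GRCh38), and SLITRK3 lies on chromosome 3, at 165186720 to 165197109. SLITRK4, on chromosome X, had 122.7 and 177 in MEK5DD libraries, against 144 and 180.2 in WT libraries. Its groups overlapped, and the 95% interval of its log2 fold change ran from -0.52 to 0.27. SLITRK2, with 1.82 and 0.997 in MEK5DD libraries, against 2.64 and 2.08 in WT libraries, was not tested.

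Among the other leucine-rich repeat genes, LRRN1 and FLRT2 moved in opposite directions. LRRN1, a membrane protein gene of the developing nervous system, fell to 1894 and 1863 in MEK5DD libraries, against 3446 and 3384 in WT libraries. The libraries of each group lay close together (-0.86, SE 0.06, adjusted p = 3.13e-06). LRRN1 (chromosome 3, 3799437 to 3847703) lies within SUMF1 on the opposite strand and shares 190 exon bases with it, and SUMF1 had a log2 fold change of -0.0080 (SE 0.12). LRRN2 had 36.3 and 59.8 in MEK5DD libraries, against 69.6 and 63.5 in WT libraries, and was not called (-0.50, SE 0.25). Its log2 fold change was -0.15 without MEK5DD replicate 1 and -0.85 without MEK5DD replicate 2. FLRT2, whose protein binds latrophilins and UNC5 receptors, had 67.2 and 67.8 in MEK5DD libraries, against 27.3 and 33.3 in WT libraries. That was 2.20-fold higher (1.14, SE 0.23, adjusted p = 0.00579), from low counts. FLRT1, of the same family, had 17.3 and 17.9 in MEK5DD libraries, against 12.3 and 10.4 in WT libraries, at the edge of the filter (0.59, SE 0.38, adjusted p = 0.349).

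LRFN genes encode synaptic proteins that bind receptor phosphatases or glutamate receptors, and of 5 tested 1 rose (7.69% of all genes). LRFN5 had 278 and 278 in MEK5DD libraries, against 197 and 185 in WT libraries (0.54, SE 0.11, adjusted p = 0.00814). The groups did not overlap, but the call was lost without WT replicate 2 (adjusted p = 0.0657). LRFN2 had 9.09 and 7.97 in MEK5DD libraries, against 20.3 and 20.8 in WT libraries. Its 2.26-fold lower level was not called (-1.18, SE 0.39, adjusted p = 0.0654), but it passed when the mean-variance trend was left out (adjusted p = 0.0313). With 1 library left out the log2 fold change of LRFN2 ran from -1.26 to -1.09. LRFN3 and LRFN4 were not called, with log2 fold changes of 0.27 (SE 0.14) and -0.16 (SE 0.12). Without MEK5DD replicate 1 the log2 fold changes of LRFN3 and LRFN4 were 0.13 and -0.31. Without MEK5DD replicate 2 they were 0.40 and 0.00082. LRFN4 lies within PC on the opposite strand and shares 621 exon bases with it. Neither tested LRRTM gene, whose products bind neurexins, passed the test: LRRTM4 had 74.5 and 104 in MEK5DD libraries, against 108 and 111 in WT libraries (-0.32, SE 0.18), and LRRTM3 had 19.1 and 19.9 in MEK5DD libraries, against 13.2 and 15.6 in WT libraries (0.42, SE 0.35). For LRRTM4 the log2 fold change was -0.08 without MEK5DD replicate 1 and -0.55 without MEK5DD replicate 2.

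Neuroligins are the postsynaptic receptors of neurexins, and of 5 tested genes 2 fell, NLGN4X and NLGN4Y (6.47% of all genes). NLGN4X had 1102 and 1157 in MEK5DD libraries, against 2643 and 2763 in WT libraries. Both MEK5DD values lay well below both WT values, at 2.39-fold lower (log2 fold change -1.26, SE 0.07, adjusted p = 2.75e-07). NLGN4X lies on the minus strand of chromosome X, 5840637 to 6228863. Its paralog NLGN4Y fell too (log2 fold change -0.49, SE 0.09, adjusted p = 0.00375). These paralogs are nearly identical in coding sequence, so how the counting split reads between them is uncertain. NLGN2, a neuroligin of inhibitory synapses, had 1153 and 1113 in MEK5DD libraries, against 1316 and 1303 in WT libraries. It was not called (-0.21, 95% interval -0.36 to -0.05, adjusted p = 0.0736). With 1 library left out the log2 fold change of NLGN2 ran from -0.23 to -0.18. NLGN1 had 223 and 319 in MEK5DD libraries, against 334 and 317 in WT libraries, where MEK5DD replicate 1 stood below the other 3 libraries. NLGN1 was not called (-0.29, SE 0.15, adjusted p = 0.237), and its log2 fold change was -0.03 without MEK5DD replicate 1 and -0.54 without MEK5DD replicate 2. NLGN3 had 121 and 116 in MEK5DD libraries, against 138 and 151 in WT libraries, and was not called (-0.29, SE 0.14, adjusted p = 0.214).

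Neurexins are the presynaptic partners of neuroligins. NRXN2 had 45.4 and 43.9 in MEK5DD libraries, against 73.99 and 64.6 in WT libraries, without overlap, and was not called (-0.62, SE 0.21, adjusted p = 0.0648). NRXN3 had 60.9 and 36.9 in MEK5DD libraries, against 36.1 and 37.5 in WT libraries, where MEK5DD replicate 1 stood above the other 3 libraries, and was not called (0.36, SE 0.27, adjusted p = 0.433). CNTNAP2, a neurexin-like protein gene that is known for clustering potassium channels on axons, had 3161 and 3600.0 in MEK5DD libraries, against 2674 and 2796 in WT libraries (0.30, SE 0.07, adjusted p = 0.0164). Leaving out WT replicate 1 (adjusted p = 0.202) or WT replicate 2 (adjusted p = 0.0803) ended this call. CNTNAP1 and CNTNAP3 were not called, and CNTNAP3 shares near-identical sequence with CNTNAP3B, which fell below the filter.

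L1CAM showed the largest difference among the 19 immunoglobulin-type genes tested, of which 4 rose and 2 fell. Over all genes tested 7.69% rose and 6.47% fell. L1CAM, which promotes axon growth and bundling, had normalised read counts of 910.5 and 835 in MEK5DD libraries, against 295 and 319.8 in WT libraries. The groups lay far apart, at 2.83-fold higher (log2 fold change 1.50, SE 0.09, adjusted p = 8.23e-07). L1CAM lies on the minus strand of chromosome X, 153861514 to 153886174. Of its family, NFASC, the neurofascin gene of axon initial segments and nodes, rose to 524 and 573 in MEK5DD libraries, against 387 and 369.7 in WT libraries (0.53, SE 0.09, adjusted p = 0.00270). NRCAM had 58.2 and 99.7 in MEK5DD libraries, against 64.3 and 63.5 in WT libraries. NRCAM was not called (0.25, SE 0.24, adjusted p = 0.550). MEK5DD replicate 2 was the high value, and leaving out MEK5DD replicate 1 made NRCAM a called rise (adjusted p = 0.0353), while its log2 fold change was -0.13 without MEK5DD replicate 2.

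CADM1, a homophilic adhesion gene of epithelia and synapses, fell to 578 and 578 in MEK5DD libraries, against 883 and 826 in WT libraries (-0.56, SE 0.08, adjusted p = 0.000779). The other 3 CADM genes were not called. Of 9 IGSF genes tested 2 rose and 1 fell, where 7.69% of all genes tested rose and 6.47% fell. IGSF10, which shares 3634 exon bases with MED12L on the opposite strand, was not called (-0.86, SE 0.43, adjusted p = 0.221). It had 7.27 and 16.9 in MEK5DD libraries, against 19.4 and 22.9 in WT libraries, and was at -1.42 without MEK5DD replicate 2. IGSF21, whose product binds a neurexin, had 553 and 535 in MEK5DD libraries, against 374 and 455 in WT libraries (0.40, SE 0.11, adjusted p = 0.0266). WT replicate 1 was the lowest library. Without WT replicate 1 IGSF21 was not called (0.26, adjusted p = 0.387), nor with DESeq2 (adjusted p = 0.0641). IGSF3 had 1766 and 1689 in MEK5DD libraries, against 1471 and 1361 in WT libraries (0.29, SE 0.07, adjusted p = 0.0199), and it missed the threshold when WT replicate 1 (adjusted p = 0.0882) or WT replicate 2 (adjusted p = 0.356) was left out. IGSF9B, of inhibitory synapses, had 296 and 387 in MEK5DD libraries, against 449 and 493 in WT libraries (-0.47, SE 0.13, adjusted p = 0.0252). IGSF9B missed the threshold with WT replicate 2 left out (adjusted p = 0.114), and its log2 fold change was -0.28 without MEK5DD replicate 1.

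Among contactin and NCAM genes no member was called by limma, edgeR or DESeq2, and none had an unadjusted p under 0.05 in limma. NCAM1, a homophilic adhesion gene found on neural and stem cells, had 145 and 186 in MEK5DD libraries, against 166 and 169 in WT libraries, with overlapping groups and a 95% interval of -0.34 to 0.30. CNTN1, a ligand of PTPRZ1, had 234 and 233 in MEK5DD libraries, against 248 and 211 in WT libraries, with an interval of -0.24 to 0.29. IGSF1 had 347 and 333 in MEK5DD libraries, against 277 and 289.6 in WT libraries. The groups did not overlap, but the difference passed only without MEK5DD replicate 2 (adjusted p = 0.0473, against 0.115 over all 4 libraries). IGSF8, a partner of tetraspanins, had 1096 and 884 in MEK5DD libraries, against 975 and 1003 in WT libraries, where MEK5DD replicate 1 was the highest and MEK5DD replicate 2 the lowest of the 4 libraries.

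Latrophilins are adhesion receptors of the G-protein-coupled class, and teneurins are large membrane proteins that bind them. Of 7 tested genes of these families 3 fell and 0 rose by limma, where 6.47% of all genes tested fell and 7.69% rose. At an unadjusted p under 0.05 also 0 rose, as with edgeR and DESeq2. ADGRL2 had 2426 and 2601 in MEK5DD libraries, against 3367 and 3518 in WT libraries (-0.45, SE 0.07, adjusted p = 0.000744). ADGRL1 had 1776 and 1716 in MEK5DD libraries, against 2037 and 2148 in WT libraries (-0.26, SE 0.07, adjusted p = 0.0234), and missed the threshold without WT replicate 1 (adjusted p = 0.159) or without WT replicate 2 (adjusted p = 0.377). ADGRL1 shares 473 exon bases with a listed antisense gene. TENM4 had 241 and 273 in MEK5DD libraries, against 413 and 398 in WT libraries, at 1.58-fold lower (-0.66, SE 0.11, adjusted p = 0.00163). TENM3, the most abundant teneurin gene by count, had 2271 and 2442 in MEK5DD libraries, against 2454 and 2505 in WT libraries. Its difference was within a 95% interval of -0.22 to 0.07 (log2). TENM1 had 186 and 344 in MEK5DD libraries, against 310.0 and 343 in WT libraries. It was not called (-0.36, SE 0.21, adjusted p = 0.291). MEK5DD replicate 1 stood apart there: the log2 fold change was 0.08 without it and -0.80 without MEK5DD replicate 2. TENM1 shares 241 exon bases with STAG2 on the opposite strand. ADGRL3 had 310.8 and 404 in MEK5DD libraries, against 321 and 383 in WT libraries, with overlapping groups.

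The receptor tyrosine phosphatases PTPRD, PTPRF and PTPRS are presynaptic organisers, and PTPRZ1 is a receptor of neural progenitors and glia. PTPRF was the member with the highest normalised count, 6592 and 6934 in MEK5DD libraries, against 7361 and 7434 in WT libraries. It was not called (-0.13, 95% interval -0.26 to -0.0018, adjusted p = 0.174). Without MEK5DD replicate 1 the log2 fold change of PTPRF was -0.09, and without MEK5DD replicate 2 it was -0.17. PTPRS had 2177 and 2144 in MEK5DD libraries, against 2279 and 2314 in WT libraries, with an interval of -0.23 to 0.05. PTPRD had 957 and 1198 in MEK5DD libraries, against 1304 and 1294 in WT libraries, and was not called (-0.28, SE 0.10, adjusted p = 0.0792). MEK5DD replicate 1 was the lower MEK5DD library, and the log2 fold change of PTPRD was -0.44 without MEK5DD replicate 2. PTPRZ1 had 3563 and 4476 in MEK5DD libraries, against 5124 and 5078 in WT libraries (-0.35, SE 0.09, adjusted p = 0.0204). MEK5DD replicate 1 was the low library: the log2 fold change of PTPRZ1 was -0.19 without it, and the call was lost without WT replicate 1 (adjusted p = 0.0588).

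**Figure D2:**
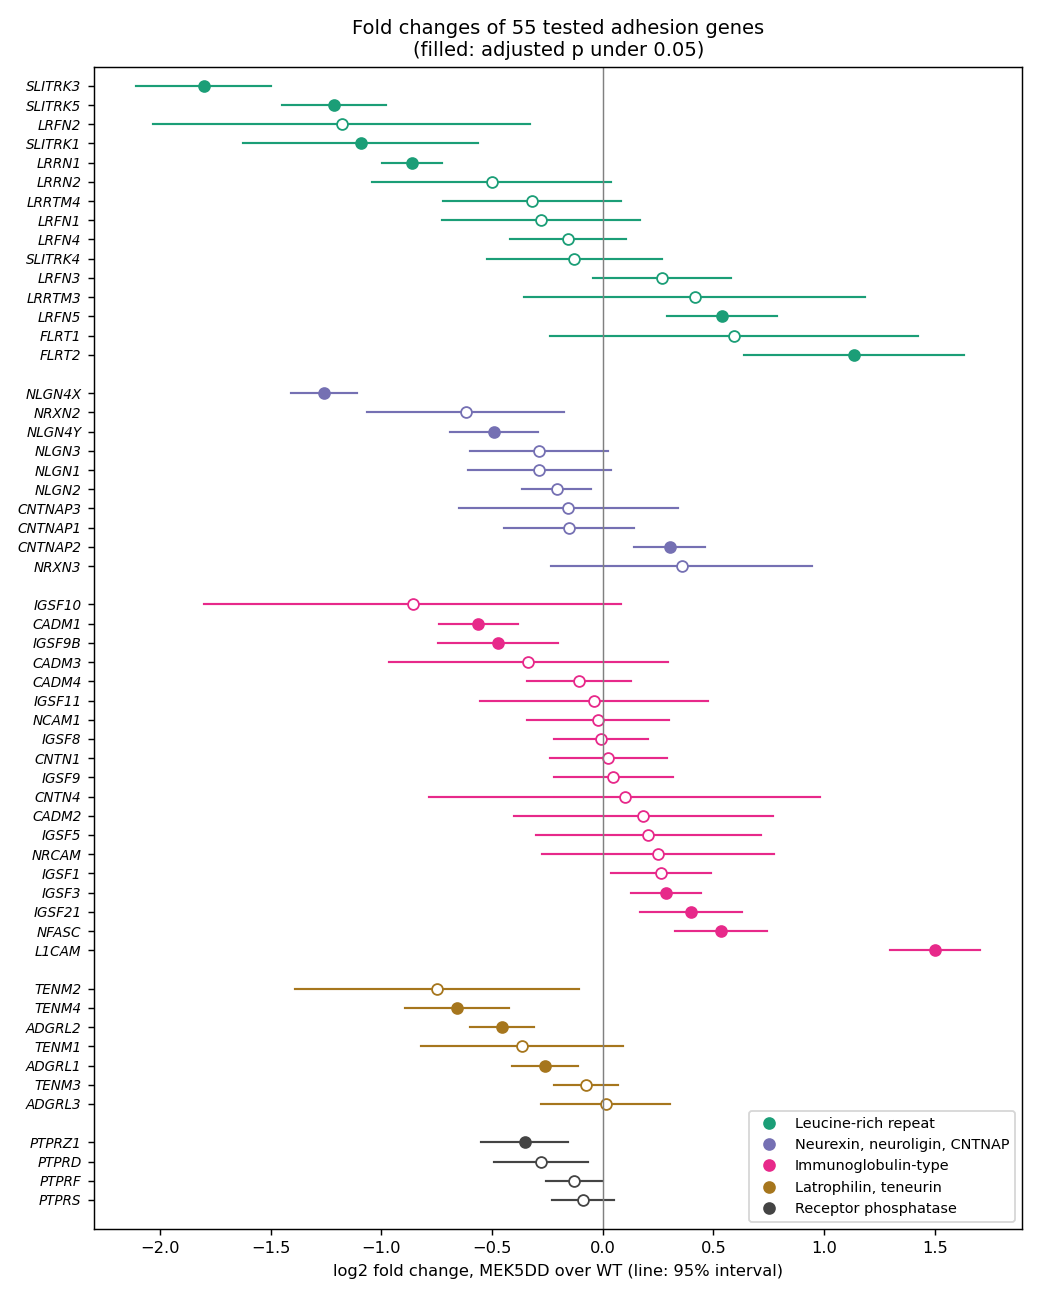
Log2 fold change of MEK5DD over WT for 55 of the tested adhesion genes, with 95% intervals from limma as lines, grouped by protein class, and filled points for an adjusted p under 0.05. The 3 called SLITRK genes and NLGN4X lie left of -1, and L1CAM and FLRT2 lie right of 1, while all 4 receptor phosphatase genes lie from -0.35 to -0.09.

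Levels were compared between genes as reads per kilobase of annotated exon, scaled to library size (RPKM). On this scale LRRN1 was the highest in WT cells, with a mean of 27.8 in MEK5DD cells and 51.6 in WT cells. It stood below PTPRF in MEK5DD cells, where PTPRF had a mean of 39.9, against 44.5 in WT cells. PTPRZ1 had means of 25.6 in MEK5DD cells and 33.1 in WT cells, and ADGRL2 had 20.5 in MEK5DD cells and 28.6 in WT cells. In WT cells 12 of 59 members reached a mean of 10 on this scale and 37 reached 1. L1CAM had means of 7.59 in MEK5DD cells and 2.72 in WT cells, and SLITRK3 had 1.10 in MEK5DD cells and 3.94 in WT cells, so these genes changed places in the order of levels. NCAM1 (0.824 in MEK5DD cells and 0.845 in WT cells) stood under 1 in both groups.

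**Figure D3:**
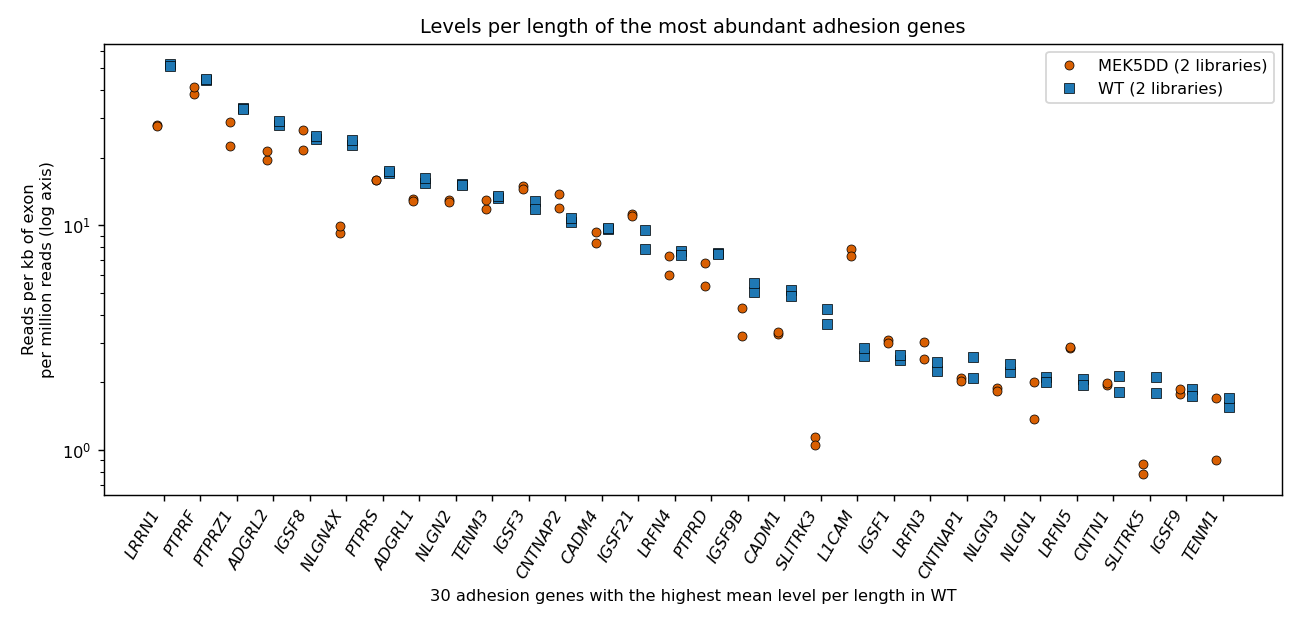
RPKM (reads per kilobase of exon, scaled to library size, log axis) in each library for the 30 adhesion genes with the highest mean in WT cells, with MEK5DD libraries as circles and WT libraries as squares. LRRN1, NLGN4X, SLITRK3 and SLITRK5 stand lower in MEK5DD libraries than in WT libraries, and L1CAM stands higher.

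Adhesion genes are long. The median span of the 56 tested, introns included, was 185.6 kb, against 34.8 kb for 13082 protein-coding genes tested. The median was 194.2 kb in the 7 that rose and 123.7 kb in the 12 that fell. Across the 56 genes, which are not independent replicates, Spearman's rho between span and log2 fold change was 0.10. Some adhesion genes sit inside longer genes on the opposite strand. LRRTM1, with 0.909 and 0.997 in MEK5DD libraries, against 0.881 and 3.12 in WT libraries, lies in CTNNA2, the neuronal alpha-catenin gene, which fell to 57.2 and 85.7 in MEK5DD libraries, against 122 and 151 in WT libraries (-0.95, SE 0.21, adjusted p = 0.00941, against 0.132 with no mean-variance trend). LRRTM3 lies in CTNNA3 and FLRT1 in MACROD1, both host genes not called (0.00066, SE 0.26, and -0.13, SE 0.11). LRRTM1, LRRTM3 and FLRT1 share no exon bases with these hosts. Of the 6 host genes listed, 0 rose and 1 fell (limma), with 0 higher also at an unadjusted p under 0.05 and with edgeR and DESeq2. The 1 call among 6 lies near the 14.2% of all genes tested that were called.

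Of 27 tested secreted and membrane partners of these adhesion proteins 1 rose and 6 fell (median log2 fold change -0.13), where 7.69% of all genes tested rose and 6.47% fell. The neurotrophin-3 receptor gene NTRK3, whose product also binds PTPRS, had 126 and 137 in MEK5DD libraries, against 289 and 314.5 in WT libraries. Both MEK5DD values lay below both WT values (-1.19, SE 0.12, adjusted p = 5.48e-05). C1QL3, a secreted ligand of an adhesion receptor related to latrophilins, had 27.3 and 22.9 in MEK5DD libraries, against 50.2 and 62.5 in WT libraries (-1.13, SE 0.25, adjusted p = 0.0109), and LGI2, a secreted protein gene of the leucine-rich glioma-inactivated family, had 153 and 131 in MEK5DD libraries, against 303 and 267 in WT libraries (-1.004, SE 0.13, adjusted p = 0.000381). The PTPRZ1 ligand genes PTN and MDK were not called (-0.30, SE 0.10, adjusted p = 0.0612, and -0.20, SE 0.07, adjusted p = 0.0651), and GPC4, a glypican ligand of LRRTM4, had a log2 fold change of 0.07 (SE 0.06). The fall of C1QL3 was not called by DESeq2 (adjusted p = 0.0551) or in the 3 libraries left without WT replicate 2 (adjusted p = 0.105). With no mean-variance trend C1QL3 (adjusted p = 0.0572) and LGI2 (adjusted p = 0.0504) missed the threshold.

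Of 20 postsynaptic scaffold genes 1 rose and 4 fell (median -0.11), of 23 presynaptic release and active zone genes 1 rose and 2 fell (median -0.04), of 12 ankyrin, spectrin and band 4.1 genes 0 rose and 3 fell (median -0.04), and of 12 protease and gamma-secretase genes 0 rose and 2 fell (median -0.08). Over all genes tested 14.2% were called, 7.69% higher and 6.47% lower, and the counts of the presynaptic and protease lists lie near that share. Where 0 rose by limma, edgeR and DESeq2 also called 0 higher, and at an unadjusted p under 0.05 limma had 1 of the anchor genes and 0 of the protease genes higher. SYN3, a synapsin gene of synaptic vesicles, had 10.9 and 16.9 in MEK5DD libraries, against 55.5 and 51.04 in WT libraries (-1.89, SE 0.31, adjusted p = 0.00151). It overlaps TIMP3 on the opposite strand, with no shared exon bases. SYT1, the calcium sensor gene of vesicle release, which the neuron marker list also holds, rose to 1453 and 1717 in MEK5DD libraries, against 1068 and 1064 in WT libraries (0.57, SE 0.09, adjusted p = 0.000948). ANK2, which anchors L1-type proteins to the cytoskeleton, fell to 629.7 and 726 in MEK5DD libraries, against 1025 and 1066 in WT libraries (-0.63, SE 0.09, adjusted p = 0.000579), and the protease gene BACE2 fell to 184 and 174 in MEK5DD libraries, against 292 and 296 in WT libraries (-0.71, SE 0.11, adjusted p = 0.00144). The other named calls were falls of GPHN (-0.42), MAGI2 (-0.40), LIN7A (-0.50), EPB41 (-0.24) and PSEN2 (-0.47). All 5 of these missed the threshold when either WT library was left out (adjusted p from 0.0550 to 0.397), and DESeq2 called none of them (adjusted p from 0.0553 to 0.161). With no mean-variance trend SYT1 (adjusted p = 0.0936) and ANK2 (adjusted p = 0.0743) missed it as well.

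Several markers of other cell types were called in the same libraries, where 14.2% of all genes tested were called. The pluripotent markers had summed normalised counts of 126332 to 135704 in MEK5DD libraries, against 129483 to 132140 in WT libraries, with overlapping groups and 1 of 8 higher and 1 lower. Of 7 tested neural progenitor markers 5 fell and 1 rose (8 of 12 listed, sum 8289 to 8816 in MEK5DD libraries, against 8492 to 8719 in WT libraries). NES, the intermediate filament gene nestin, was the one that rose and held most of that sum, with 8239.7 and 7717 in MEK5DD libraries, against 6178 and 6346 in WT libraries (0.35, SE 0.06, adjusted p = 0.00237). Among the falls SIX6, an early eye field gene, had 199 and 186 in MEK5DD libraries, against 1272 and 1282 in WT libraries, and SOX1 had 8.18 and 11.96 in MEK5DD libraries, against 49.3 and 65.6 in WT libraries, while the defining marker PAX6 had 6.36 and 5.98 in MEK5DD libraries, against 1.76 and 3.12 in WT libraries. Of 9 tested postmitotic neuron markers 5 rose and 1 fell (9 of 13 listed, sum 5516 to 5947 in MEK5DD libraries, against 2956 to 2989 in WT libraries), led by STMN2 (1183 and 1237 in MEK5DD libraries, against 87.2 and 80.2 in WT libraries) and, as the fall, MAP2 (9.09 and 14.95 in MEK5DD libraries, against 53.7 and 55.2 in WT libraries). Of 4 mesendoderm markers 2 rose (4 of 8 listed, sum 5585 to 5872 in MEK5DD libraries, against 2804 to 2899 in WT libraries). KDR, which rose, held most of that sum, with 5366 and 5608 in MEK5DD libraries, against 2757 and 2669 in WT libraries. Of 5 fibroblast or feeder markers 3 rose (5 of 9 listed, 8889 to 9225 in MEK5DD libraries, against 7410 to 7503 in WT libraries). THY1, which was not called, held most of this second sum, with 6214 and 6072 in MEK5DD libraries, against 5775 and 5704 in WT libraries. Of 3 tested glial markers 1 fell (5 of 8 listed, 1961 to 2136 in MEK5DD libraries, against 2246 to 2295 in WT libraries), with GFAP at 5.45 and 10.96 in MEK5DD libraries, against 7.05 and 1.04 in WT libraries. The part of these markers' cells in the adhesion gene results was not tested.

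The calls differed in how far they depended on single libraries and on the variance model. A fit without a MEK5DD library takes its spread within groups from the WT pair alone. That pair differed less than the MEK5DD pair (chi-square per degree of freedom 1.88, against 6.11). Adjusted p-values in such a fit are thus not comparable with those over all 4 libraries. With 1 library left out, 13 of 56 adhesion genes were called without WT replicate 1 (7.61% of all genes), 14 without WT replicate 2 (7.38%), 23 without MEK5DD replicate 1 (23.8%) and 29 when MEK5DD replicate 2 was absent (29.4%). Of the 19 called genes 11 passed in each of these 4 fits, and none of the 19 changed direction in any of 15 alternatives. In 3 of them a left-out library moved the log2 fold change by over 1.5 times: IGSF21, IGSF9B and PTPRZ1, as given above. With edgeR on recovered reads all 19 passed (14.7% of all genes), and with DESeq2 18 passed (8.64%). Without the mean-variance trend 7 adhesion genes were called (2.79% of all genes). Of the 19, L1CAM, FLRT2, SLITRK3, SLITRK5, NLGN4X and LRRN1 were among those 7 (the seventh was LRFN2), and the other 13 had an adjusted p from 0.0604 (CADM1) to 0.244 (PTPRZ1). For the low-count gene LRFN2 this fit was not the stricter one (adjusted p = 0.0313, against 0.0654 with the trend). The low-count gene FLRT2 had a smaller SE without the trend but a larger adjusted p (0.0425, against 0.00579 with it). The SE of FLRT2 was 0.12 without the trend, against 0.23 with it, and that of LRFN2 was 0.097, against 0.39.

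**Figure D4:**
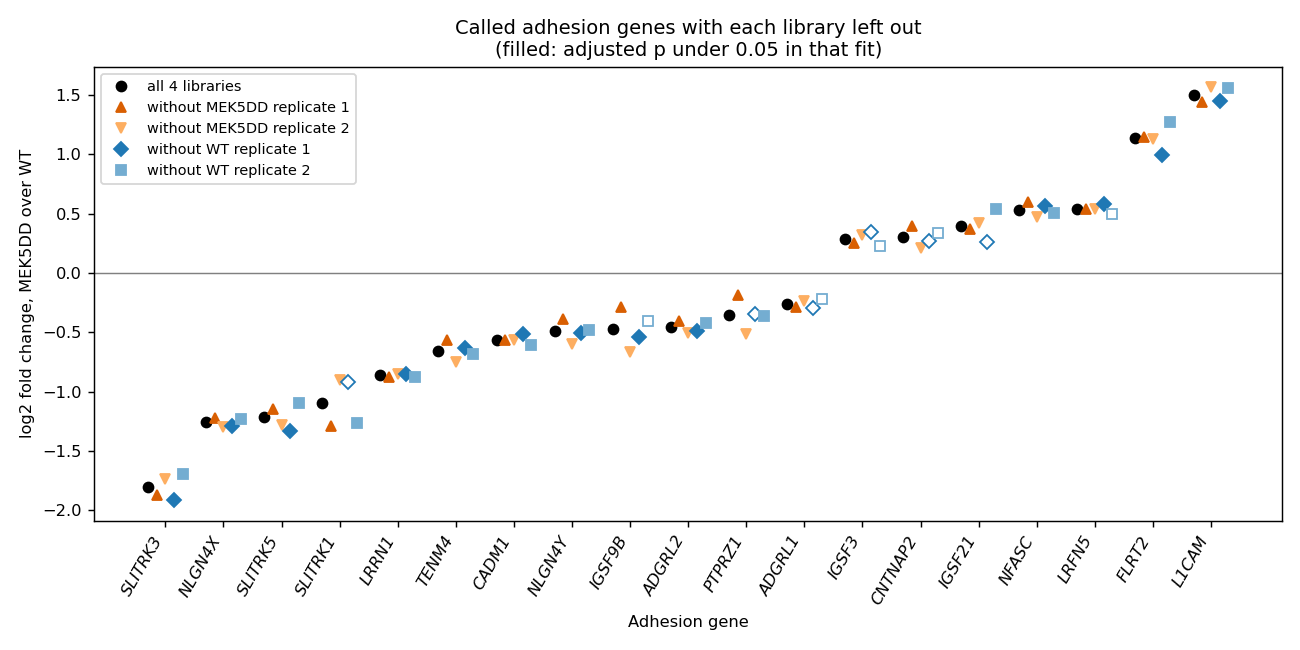
Log2 fold change of the 19 called adhesion genes over all 4 libraries and with each library left out, with filled symbols for an adjusted p under 0.05 in that fit. L1CAM stays between 1.44 and 1.56 and SLITRK3 between -1.91 and -1.69, while open symbols mark the 8 genes that lost their call in at least 1 of these fits.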

How the data were processed

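Bulk poly(A) RNA sequencing of 2 MEK5DD and 2 WT libraries of H1 cells was deposited as 1 table of gene symbols. Its values are signal: read counts that the authors divided by a size factor for each library, as recovered from the values (every value of a library is a whole multiple of that library's smallest step, within a tolerance of 0.001). Tools listed per the submitters' processing notes are featureCounts 1.5.3, STAR, DESeq2 1.26.0 and Trimmomatic 0.36, with hg38 as build; whether counting used strand is not stated there. In 23 rows the symbol had been turned into a date, so those genes have no name here.

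Values were analysed as log2(value + 1) with limma 3.58.1 (R 4.3.3), with a mean-variance trend and no covariate. The t-tests had 11.99 degrees of freedom, most of them from variance shared over genes. SEs, intervals and p-values thus rest only in part on a gene's own libraries. Genes with at least 10 in at least 2 libraries entered (15721), p-values are two-sided and Benjamini-Hochberg adjusted over all of them, and a call is an adjusted p under 0.05. Fold changes are on the log2(value + 1) scale, which understates changes of low genes. Levels per length are recovered reads per kb of merged GENCODE v29 exons (GRCh38) scaled to recovered library size (RPKM). Alternatives were pseudocounts of 0.5 and 5, no filter, a mean of at least 50, TMM, upper-quartile and quantile scaling, no trend, a replicate block, each library left out, and 2 count models fitted to the recovered reads, DESeq2 1.42.0 and edgeR's quasi-likelihood test (4.0.16). The fit was tested on simulated data. Recovered reads ran from 14908486 to 17628945 per library, and 17034 symbols (97.5%) matched 1 GENCODE gene. Named genes are the called members, those at an absolute log2 fold change of at least 1, the 2 most abundant others of each family, and up to 3 called genes of each partner list. IGSF10, NRXN3, PTPRD, NLGN3, SUMF1, MACROD1, CTNNA3, PTN, MDK, GPC4, the markers given with values and the members below the filter were named after their values were seen. The members and lists were chosen with earlier results of these data known. The levels of NLGN4Y in single libraries are not reported. Values of some genes that the naming rule selects are not reported here, though counts include them.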

Additional observations from a re-analysis of the deposited data

How the results depend on the processing

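Over all genes, 2226 were called, against 439 without the mean-variance trend, 1358 with DESeq2, 3349 with the replicate block and 1160 to 4629 with 1 library left out. Of the adhesion genes, 7 rose and 12 fell, against 2 and 5 without the trend, 7 and 17 with the block, and 4 to 9 and 9 to 20 with 1 library left out. Labels do not say that replicate numbers pair libraries, only 2 pairs exist and the correlation of deviations was 0.12, so the block is a change of model only. It called PTPRD (adjusted p = 0.00318), TENM1 (0.0148), LRFN2 (0.0341), NLGN2 (0.0361) and NRXN2 (0.0400), which the main limma fit did not. Limma without the block also called PTPRD with upper-quartile scaling (adjusted p = 0.0397) and NLGN2 with quantile scaling (0.0494). It called LRFN2 without the trend (0.0313). No called adhesion gene changed direction. Some uncalled genes did: ADGRL3 was -0.0023 with upper-quartile scaling, and IGSF8 was 0.0033 with edgeR and 0.0011 with DESeq2. With 1 library left out the log2 fold change ran from -0.18 to 0.20 for ADGRL3, -0.16 to 0.15 for IGSF8, -0.13 to 0.49 for CADM2, -0.090 to 0.14 for CNTN1, -0.22 to 0.42 for CNTN4, -0.32 to 0.0074 for CNTNAP1, -0.34 to 0.032 for CNTNAP3, -0.31 to 0.00082 for LRFN4, -0.20 to 0.16 for NCAM1, -0.13 to 0.63 for NRCAM (0.25 over all 4), -0.39 to 0.14 for SLITRK4 and -0.80 to 0.077 for TENM1 (-0.36 over all 4). The cause was not tested. Leaving out a library leaves 1 in its group, which is then assumed to vary like the other group. FLRT2 and SLITRK1 were not tested at a mean of at least 50. Of the 56 tested members 19 had a mean under 100.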
